A study of Mus musculus with 2 samples.

Results

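The Gimap genes encode a family of GTP-binding proteins of lymphocytes. They were taken as every gene whose symbol in the platform annotation is Gimap followed by a digit, which gave 8 genes of 19505, each with 1 probe set. The study compared sorted innate lymphoid cell (ILC) progenitors of mice with a Yeats4 deletion and of wild-type (WT) littermates, with 1 array for the Yeats4 knockout (KO) and 1 array for WT. Yeats4 encodes a reader of acetylated histones. In both genotypes the sort took lineage-negative, CD127-positive cells with intermediate c-Kit and Sca-1 that carried the integrin α4β7. The labels name no Cre driver, sex or age, and do not say how many mice gave cells to an array.

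GIMAP proteins share a GTP-binding domain known as AIG1, and several of them sit in the membranes of organelles. The family is known for its part in the survival and turnover of T and B lymphocytes, and loss of single members in mice or rats leaves fewer peripheral lymphocytes. In the mouse the genes lie side by side. In the reference annotation all 8 followed each other on chromosome 6 with no other protein-coding gene between them, in the order Gimap8, Gimap9, Gimap4, Gimap6, Gimap7, Gimap1, Gimap5 and Gimap3. Gimap6 and Gimap3 were on the minus strand and the other 6 on the plus strand.

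Values are the deposited log2 expression values, and every difference is the array labelled Yeats4 KO minus the WT array. Each genotype had a single array, so no replicate error can be given and nothing was tested. The number of arrays limits the precision. Yeats4 itself read 5.90 on the array labelled KO and 5.96 on the WT array, a difference of -0.06 where the spread of genes of like level was 0.34. Whether its probes fall within the deleted stretch is unknown here. The transcript therefore gives no check of the label, on which all directions below rest. A probe set counted as above background when it exceeded the 95th percentile of the 5222 negative control probe sets, which was 4.73 on the array labelled KO and 4.80 on the WT array. The genes of the sort and of ILC progenitors that were listed (Il7r, Kit, Itga4, Itgb7, Zbtb16, Id2, Nfil3 and Tox) were above background for 7 of 8 on the array labelled KO and for 8 of 8 on the WT array. All 10 neutrophil and monocyte markers listed were above background on both arrays too.

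Of the 8 Gimap genes, 7 read lower on the array labelled KO, and Gimap9 was the exception. Only Gimap6 was above background on both arrays. Gimap4, Gimap3 and Gimap8 were above it on the WT array only, and Gimap1, Gimap5, Gimap7 and Gimap9 were below it on both. In an array of a whole sorted sample, fewer cells that carry a transcript and less of it per cell cannot be told apart.

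**Figure D1:**
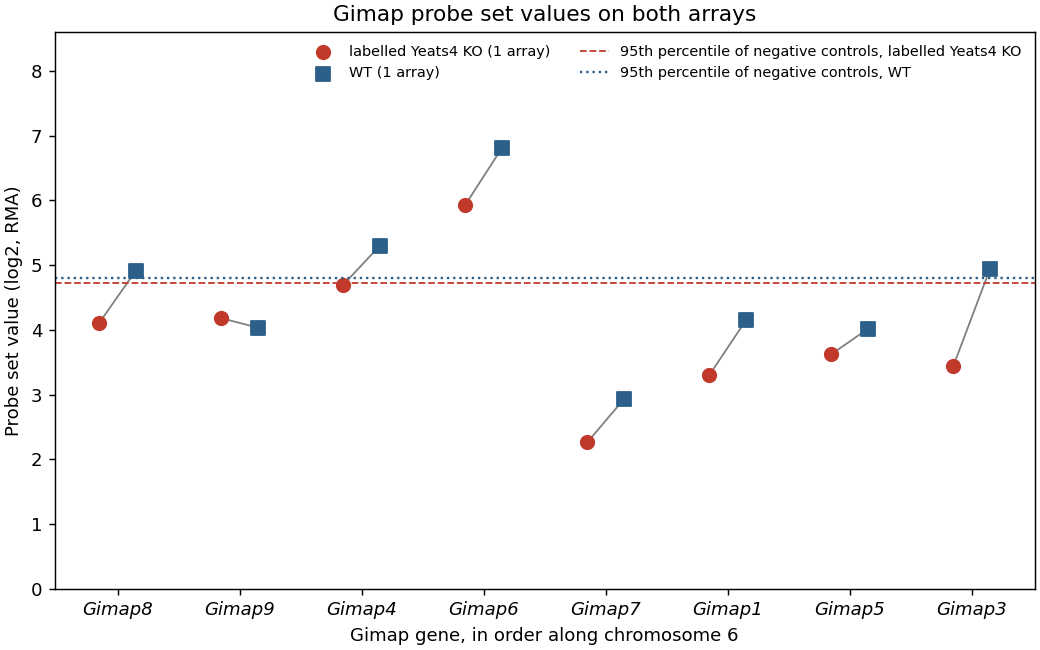
Log2 probe set values of the 8 Gimap genes, in their order along chromosome 6, on the array labelled Yeats4 KO (red circles) and the WT array (blue squares), 1 array each, with the 95th percentile of the negative controls on each array as a horizontal line. Gimap6 lies above the lines on both arrays, at 5.93 (labelled KO) and 6.81 (WT), and Gimap9 is the one gene with a higher value on the array labelled KO.

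Gimap6 gave the firmest reading. It encodes a cytosolic member that binds the autophagy protein GABARAPL2. Gimap6 (Entrez gene 231931) read 5.93 on the array labelled KO, against 6.81 on the WT array, which is 1.84-fold lower (-0.88 log2). Among the 500 genes nearest to it in mean level the median difference was 0.19 with a spread (scaled median absolute deviation) of 0.30, and 1 of the 500 was lower than Gimap6. It thus lay 3.50 spreads below the median of genes of like level.

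Gimap3 and Gimap5 are close paralogs, and both support the survival of mouse T cells. Gimap3 (Entrez gene 83408) read 3.45 on the array labelled KO, against 4.95 on the WT array, a difference of -1.50 log2. It was the only member at least 2-fold lower as measured, and none of the 500 genes of like level had a measured difference as low. Because the value on the array labelled KO was below background, the reading supports only that Gimap3 was at least 1.10-fold lower, with the dim value set to 4.80. Gimap5 (Entrez gene 317757), a lysosomal membrane protein whose loss depletes peripheral T cells, read 3.63 on the array labelled KO, against 4.02 on the WT array. Its difference of -0.39 was inside the scatter of genes of like level, of which 98 of 500 were lower. Whether the probes of these paralogs cross-hybridise was not tested, so the gap between their differences is given as measured.

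Gimap4 and Gimap8 were at the edge of detection. Gimap4 (Entrez gene 107526), which in mice speeds the death of T cells once apoptosis has been triggered, read 4.70 on the array labelled KO, against 5.30 on the WT array. That is a difference of -0.60 as measured and at least 1.41-fold with the dim value set to 4.80, and 14 of 500 genes of like level were lower as measured. Gimap8 (Entrez gene 243374), the largest member, with GTP-binding domains in tandem, read 4.11 on the array labelled KO, against 4.92 on the WT array. Its difference of -0.81 becomes at least 1.08-fold by the same limit, and 13 of 500 genes of like level were lower as measured. The size of the difference of both genes, and with it their place among genes of like level, is known only as a limit.

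The remaining members lay below background on both arrays, so their differences carry no fold and are given as measured. Gimap1 (Entrez gene 16205), which mature T and B cells of the mouse need to survive, read 3.30 on the array labelled KO and 4.15 on the WT array (-0.85 log2), with 16 of 500 genes of like level lower. Gimap7 (Entrez gene 231932), whose human counterpart stimulates the GTPase activity of another family member, read 2.26 on the array labelled KO and 2.93 on the WT array (-0.67 log2), with 43 of 500 lower. Its mean was under the level filter. Gimap9 (Entrez gene 317758) read 4.18 on the array labelled KO and 4.03 on the WT array, a difference of 0.15 that lay 0.10 above the median of genes of like level. Of the negative controls, 92.2% were below Gimap9 on the array labelled KO and 89.9% on the WT array. For Gimap1 the share was 82.9% on the array labelled KO and 90.7% on the WT array.

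Over the family, 7 of the 8 genes passed the level filter, which asked for a mean of at least 2.88 (the median probe set); Gimap7 did not. Their median difference was -0.81, with a range of -1.50 to 0.15, where the median of all 10881 genes past the filter was 0.08. Of the 7, 6 were below 0, as were 41.0% of all genes past the filter. As measured, 5 of 7 were at least 1.5-fold lower (Gimap3, Gimap6, Gimap1, Gimap8 and Gimap4), where the background was 5.16%. With values below 4.80 raised to it, this held for 1 of 7, Gimap6, where the background was 0.818%. At least 2-fold lower as measured was 1 of 7, where the background was 0.781%, and with raised values none, where it was 0.211%. No member was higher past these thresholds: as measured, the background was 1.56% for a 2-fold and 9.16% for a 1.5-fold higher reading. The 2995 other genes nearest in level to these members had a median of 0.06, with 43.7% below 0 and 5.74% at least 1.5-fold lower. These probe sets share both arrays and the same sorted cells and are not independent readings of the genotype. With raised values the median of the 7 was -0.11, since 3 of them then read alike on both arrays.

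**Figure D2:**
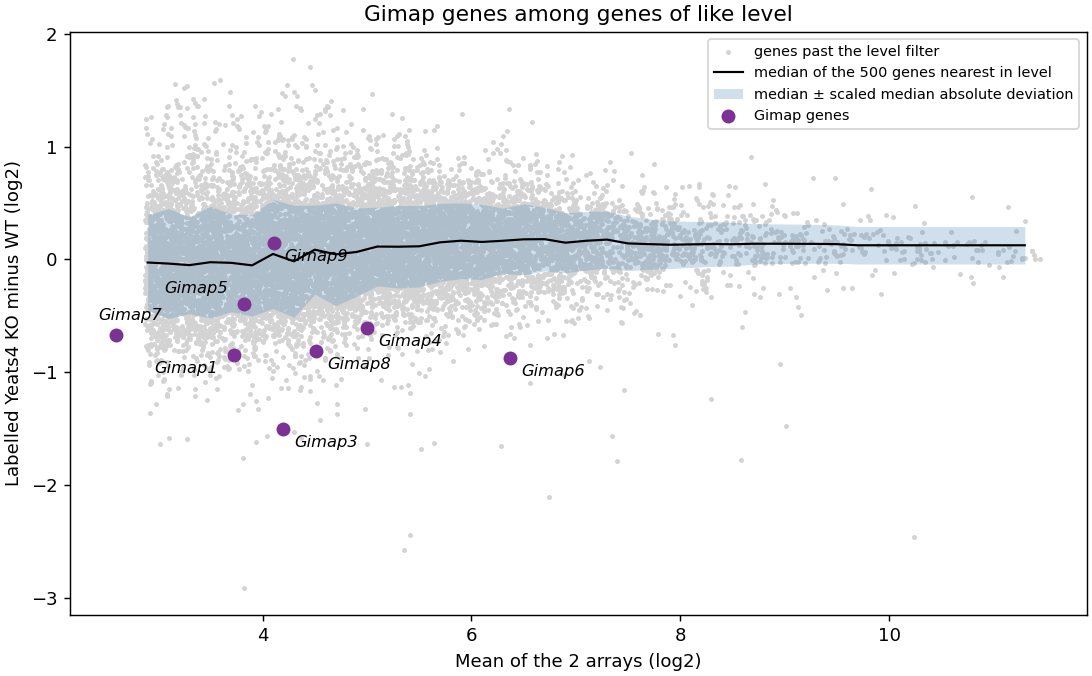
Difference between the arrays (labelled Yeats4 KO minus WT, log2) against the mean of the 2 arrays for the genes past the level filter (grey) and the 8 Gimap genes (purple), with the median of the 500 genes nearest in level and a band of 1 scaled median absolute deviation on each side. Gimap6 and Gimap3 lie 3.50 and 3.19 spreads below the median of their level as measured, although Gimap3 was below background on the array labelled KO, and Gimap9 and Gimap5 lie inside the band.

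The genes that flank the cluster lay on both sides of 0. Of the 10 protein-coding genes on each side, 12 in all passed the level filter. Their median difference was 0.09 with a range of -0.63 to 0.55, where the median of all genes past the filter was 0.08. Of the 12, 5 were below 0, near the 41.0% of all genes past the filter. None differed 2-fold, where the background was 0.781% lower and 1.56% higher. Of the 12, only Repin1, Tmem176b and Tmem176a were above background on both arrays. Zfp746 was above it on the array labelled KO only, and the others were below it on both. Next to Gimap3, Tmem176b read 8.27 on the array labelled KO, against 8.05 on the WT array, and Tmem176a read 7.10 on the array labelled KO, against 6.81 on the WT array. These membrane protein genes were above background on both arrays and were higher by 0.22 and 0.29 log2. Genes near their levels had medians of 0.13 (at a mean of 8.1) and 0.15 (at 6.9). The spreads there were 0.20 and 0.27, so both genes lay inside the scatter. On the other side, next to Gimap8, Zfp775 was at -0.47. As measured, the neighbours that differed most were Krba1 (-0.63), Malsu1 (0.55) and Zfp775, all below background on both arrays. Within the cluster, Gimap9 at 0.15 stood between Gimap8 at -0.81 and Gimap4 at -0.60.

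**Figure D3:**
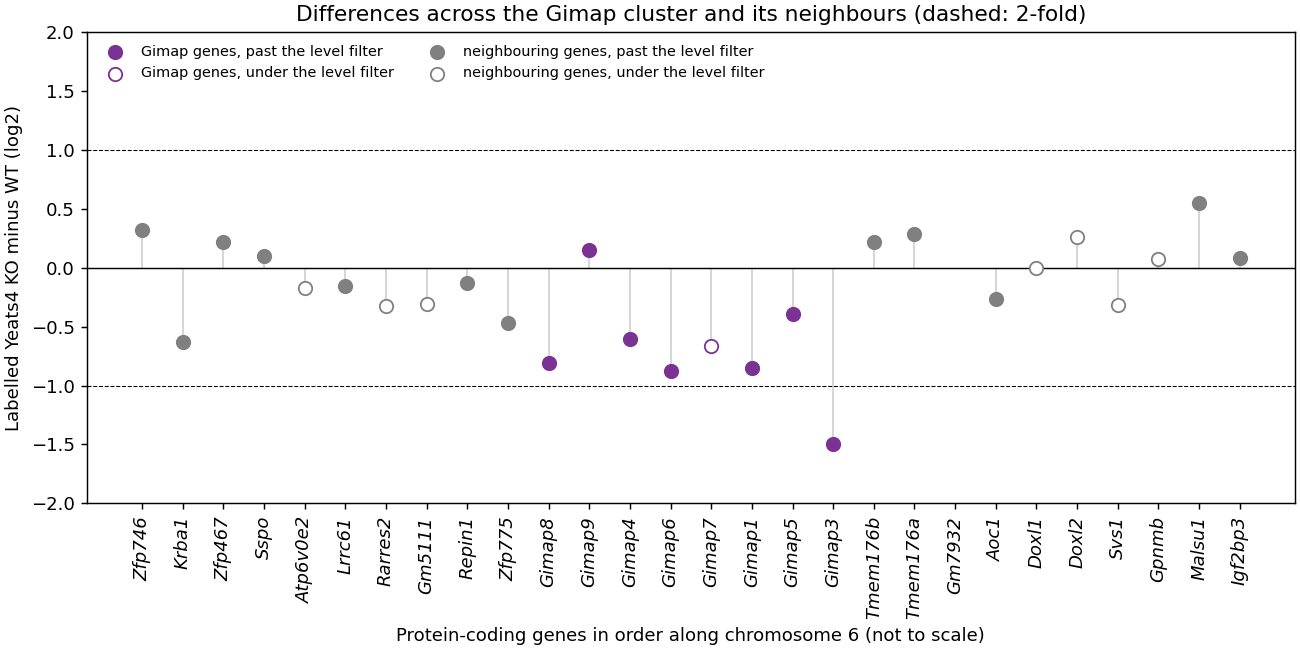
Difference between the arrays (labelled Yeats4 KO minus WT, log2) for the 8 Gimap genes (purple) and the 10 protein-coding genes on each side (grey), in chromosome order and not to scale, with open circles for genes under the level filter and no point for Gm7932, which has no probe set. The 7 lower Gimap genes lie between -0.39 and -1.50, and Tmem176b and Tmem176a just beyond Gimap3 lie above 0.

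The promoters of 4 members are shown because they cover the range of readings. Gimap3 had the largest difference as measured, and Gimap9 was not lower. Gimap6 was the one member above background on both arrays. Gimap4, below it on the array labelled KO, had the next highest mean. Each promoter shown is the 250 bases before the annotated start, 5′ to 3′, from RefSeq (GRCm38.p6). Capitals mark the motifs searched on both strands, the ETS core GGAAG, the RUNX words TGTGGT and TGCGGT, the E box words CAGCTG and CAGGTG and the GATA core AGATAA.
Gimap3 (chr6:48770852-48771101, minus strand): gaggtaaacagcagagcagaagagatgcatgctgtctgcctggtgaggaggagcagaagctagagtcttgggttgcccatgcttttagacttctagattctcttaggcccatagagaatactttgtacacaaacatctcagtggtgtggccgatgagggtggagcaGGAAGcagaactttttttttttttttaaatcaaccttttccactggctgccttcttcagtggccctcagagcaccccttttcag
Gimap6 (chr6:48708245-48708494, minus strand): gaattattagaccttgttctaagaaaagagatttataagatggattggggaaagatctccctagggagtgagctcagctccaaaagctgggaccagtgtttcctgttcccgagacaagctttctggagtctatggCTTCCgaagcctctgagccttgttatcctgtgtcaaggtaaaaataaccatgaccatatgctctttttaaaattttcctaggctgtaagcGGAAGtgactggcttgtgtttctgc
Gimap4 (chr6:48684328-48684577, plus strand): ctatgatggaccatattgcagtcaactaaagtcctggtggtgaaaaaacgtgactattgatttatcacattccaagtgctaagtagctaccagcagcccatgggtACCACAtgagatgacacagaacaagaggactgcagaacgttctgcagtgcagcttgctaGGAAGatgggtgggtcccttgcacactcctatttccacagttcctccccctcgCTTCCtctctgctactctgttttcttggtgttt
Gimap9 (chr6:48675885-48676134, plus strand): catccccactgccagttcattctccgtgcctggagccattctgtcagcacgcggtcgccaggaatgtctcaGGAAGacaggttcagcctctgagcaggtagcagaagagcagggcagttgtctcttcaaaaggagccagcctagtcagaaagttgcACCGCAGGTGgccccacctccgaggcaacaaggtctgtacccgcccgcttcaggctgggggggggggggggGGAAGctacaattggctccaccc
The reference table held 9 promoters for the 8 genes, since Gimap8 has 2 that overlap. The ETS core was in 8 of the 9, where 64.1% of 32851 mouse promoters of the same length held it. A RUNX word was in 4 of the 9 (those of Gimap9, Gimap4, Gimap7 and Gimap1), against 18.6% of all promoters. An E box word was in 1 of the 9, that of Gimap9, against 27.7%, and there it overlapped the RUNX word by 2 bases. The GATA core was in none of the 9, against 9.99%. Gimap9 had 8 CpG dinucleotides in this window and the other promoters of the family 1 to 3, where the median of all promoters was 6. These matches describe the letters only.

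The listed genes of GIMAP partners and of cell survival were nearly alike on the arrays. Of the 11 listed, 10 were measured, and their median difference was 0.00 with a range of -0.25 to 0.26. None was past 1.5-fold in either direction, where the background was 5.16% lower and 9.16% higher. At these shares few of 10 genes would be. Among the anti-apoptotic BCL2 family genes, Bcl2 was at -0.19 and Mcl1 at -0.12, both above background on both arrays, and Bcl2l1, below it on both, was at 0.06. The pro-apoptotic genes Bcl2l11 (-0.22) and Bad (0.26) were below background on both arrays. Among the autophagy genes of the ATG8 family, Gabarapl2, which encodes the partner of Gimap6, was at 0.06, Gabarap at 0.04, Gabarapl1 at 0.06 and Map1lc3b at -0.25. Gabarapl2 was at the edge of detection, at 4.83 on the array labelled KO and, below background, at 4.78 on the WT array. Gsk3b, a kinase tied to Gimap5 in mouse T cells, was at -0.03.

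The interferon-inducible IRG and GBP families, other GTPases of immune cells, did not read lower together. Of 9 members past the filter 4 were below 0, near the 41.0% of all genes past it, and the median was 0.10. None was at least 1.5-fold lower, where the background was 5.16%. Of the 10 measured, 6 were below background on both arrays. Among these were Igtp (0.64), Gbp2 (-0.46) and Gbp9 (-0.37), which differed most. As measured, genes of recirculating lymphocytes, the cells in which Gimap transcripts are best known, were closer to the Gimap values. With raised values the medians were -0.11 for the Gimap genes, 0.00 for the IRG and GBP families and -0.41 for the recirculating lymphocyte genes. The IRG and GBP families were then the closer list. All 9 recirculating lymphocyte genes past the filter were below 0 as measured, as were 41.0% of all genes past it, with a median of -0.57. As measured 2 were at least 2-fold lower, where the background was 0.781%, and with raised values 1, Lef1, where it was 0.211%. Lef1, a transcription factor of T and early B cells, read 4.83 on the array labelled KO, against 6.46 on the WT array (-1.62 log2). S1pr1, the receptor that guides lymphocytes out of tissues, was at -1.21 and below background on both arrays, and Il7r, which encodes CD127, was at -0.70.

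Most markers of T and B cells also read lower on the array labelled KO, while those of NK cells were mixed. Of 17 T cell markers measured, 5 were above background on the array labelled KO and 11 on the WT array, and 6 were below it on both. Their summed linear signal was 359 on the array labelled KO and 943 on the WT array. Among the 16 past the filter the median was -1.11, and 15 were below 0, with Cd4 (0.09) the exception. Of all genes past the filter 41.0% were below 0. As measured 10 T cell markers were at least 2-fold lower, where the background was 0.781%, and with raised values 5, where it was 0.211%. Cd3e, above background on both arrays, read 5.69 on the array labelled KO, against 7.79 on the WT array (-2.10 log2). The largest differences as measured were Cd3d (-2.92), Cd8b1 (-2.58) and Cd8a (-2.44), which were below background on the array labelled KO and at least 1.39-fold, 3.57-fold and 3.57-fold lower. Of 12 B cell markers measured, 7 were above background on the array labelled KO and 9 on the WT array, with summed signals of 817 on the array labelled KO and 1465 on the WT array. All 11 past the filter were below 0, as were 41.0% of all genes past it, with a median of -0.76. Of the 12 measured, 3 (Ms4a1, Fcrla and Cd22) were below background on both arrays. Among those above background on both arrays Igll1 (-1.16), Vpreb3 (-1.02) and Ebf1 (-0.95) differed most, while Vpreb1 (-1.37 as measured) and Pax5 (-1.32) were below it on the array labelled KO and at least 1.51-fold and 1.79-fold lower. Of 12 NK cell and ILC1 markers measured, 3 were above background on the array labelled KO and 5 on the WT array, with summed signals of 830 on the array labelled KO and 986 on the WT array. Of the 12, 7 were below background on both arrays. Among the 8 past the filter the median was -0.68 (-0.15 with raised values). Below 0 were 5 and above it 3, where 41.0% of all genes past the filter were below 0. Ccl5 (-1.78), Il2rb (-1.09) and Eomes (-1.06 as measured, below background on the array labelled KO) differed most. Nkg7 read 9.16 on the array labelled KO, against 8.63 on the WT array (0.53 log2), and Ncr1 (0.30) and Klrb1c (0.18), below background on both arrays, were also above 0. The Gimap genes summed to 160 on the array labelled KO and 271 on the WT array. These sums hold values below background. On the array labelled KO only Gimap6 was above it, and 4 of the 8 genes were below it on both arrays. Mature lymphocytes carry Gimap transcripts, and the sort was for lineage-negative cells. The B cell list does not tell mature from early B cells. Whether mature T and B cells were left in the sorted samples is not known here. The part of such cells in the lower Gimap readings was not tested.

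**Figure D4:**
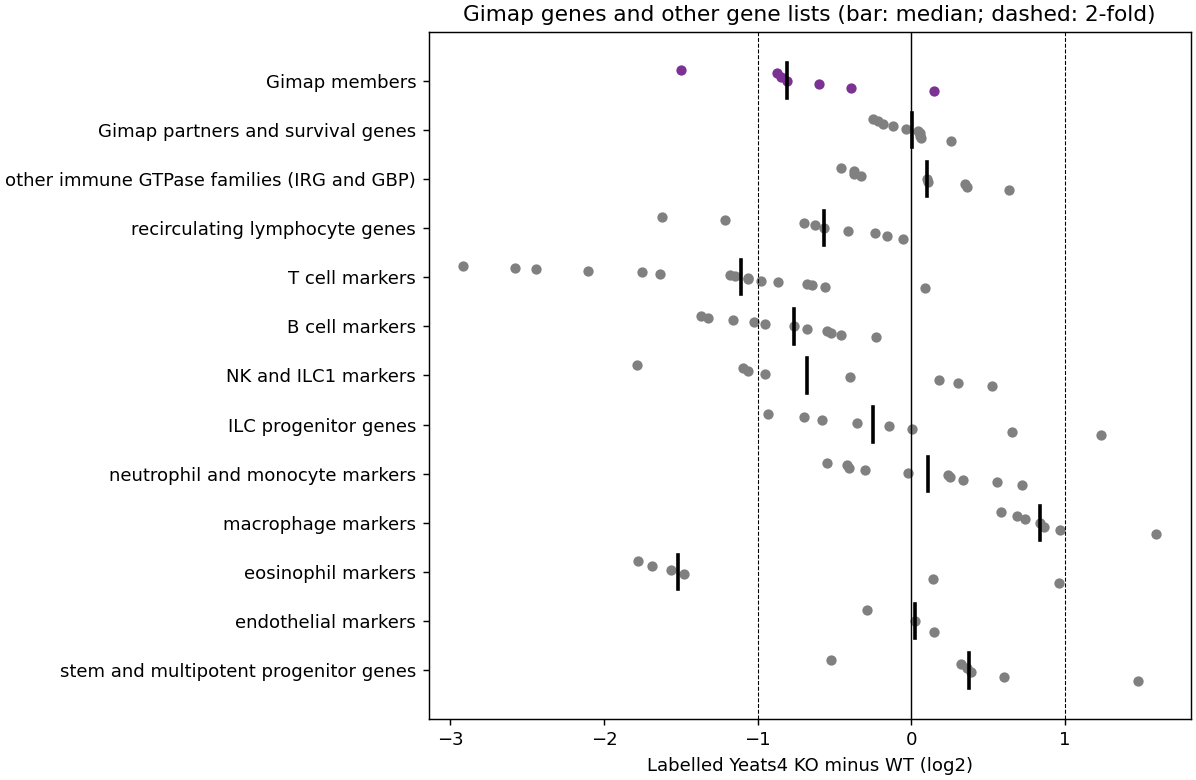
Difference between the arrays (labelled Yeats4 KO minus WT, log2) of the genes past the level filter in the Gimap family (purple) and 12 other lists (grey), 1 point per gene, with the list median as a bar. As measured the Gimap median is -0.81, that of B cell markers -0.76 and that of the IRG and GBP families 0.10; with dim values raised to 4.80 they are -0.11, -0.68 and 0.00.

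The genes that read most like the 3 members with the largest differences as measured were found by distance in the plane of the 2 arrays' log2 values. For Gimap6 these were Klf7 (distance 0.06), Atg16l2 (0.14) and the T cell adaptor gene Lat (0.15). For Gimap3 they were the eosinophil granule genes Ear10 (0.15) and Prg3 (0.22) and then Lpxn (0.25). Their differences of -1.53, -1.56 and -1.58 were lower than the -1.50 of Gimap3. These genes lay outside its 500 genes of like level. For Gimap1, in the dense range below background, Hmx3, Rpp25l and Serpina6 were all within 0.04. Likeness over 2 arrays places a gene by its level and a single difference.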

How the data were processed

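Total RNA of 2 sorted samples was measured on 1 array each. Per the submitters' processing notes, the authors used Affymetrix Power Tools and RMA, and the deposited values are log2 expression values. RMA brings the arrays to a common distribution, which hides any change in the total RNA of a cell. Neither versions nor a build is given in the sources used here. The array named in the design text is not the one whose annotation matches the probe sets, on which the gene names rest.

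Of 29129 probe sets, 19572 have 1 gene symbol, and a gene was read from its brightest. The level filter of 2.88 kept 10881 genes. Each member was set beside the 500 genes nearest in mean level. The rule for names took all members, all partners measured, Yeats4, the 3 largest differences in each other list and among the neighbours, and the 3 genes nearest to 3 members. Tmem176a, Tmem176b, Gm7932, Cd3e, Cd4, Vpreb3, Ebf1, Nkg7, Ncr1, Klrb1c, Ccr3, Siglecf and the ILC progenitor genes listed by name lie outside it and were named after their values were seen. The same holds for Repin1, Zfp746, Ms4a1, Fcrla and Cd22. The members and lists were chosen with earlier results of these data known. Bax and other list genes absent from the annotation were not analysed here, nor were protein sequences. Scripts were tested on simulated data with less noise than these arrays and larger differences than the members showed, which checks the code only. The scripts used Python 3.11.15, numpy 2.4.6, pandas 2.3.3, scipy 1.17.1, statsmodels 0.14.6 and matplotlib 3.10.9. Alternatives were other level filters, centring, loess (span 0.3), quantile normalization, raising of dim values to 4.80, averaging of probe sets, a 1.5-fold threshold and windows of 200 and 1000 genes.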

Additional observations from a re-analysis of the deposited data

How the results depend on the processing

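No paired analysis was possible because each genotype has 1 array. The median difference of the Gimap genes past the filter was -0.81 and stayed between -0.74 and -0.89 under the other level filters, centring, the loess correction and quantile normalization, and was -0.11 once values below 4.80 were raised to it. In that setting Gimap1, Gimap5, Gimap7 and Gimap9 read alike on both arrays by construction, Gimap3 was at -0.14 and Gimap8 at -0.11, and the T cell marker median was -0.53 instead of -1.11. The number of members at least 2-fold lower was 1. It was 2 after the loess correction and after quantile normalization, where Gimap6 joined Gimap3, and 5 at the 1.5-fold threshold. That 5 became 1, Gimap6, when dim values were also raised, an alternative chosen after seeing the data. Averaging probe sets could change nothing for the members, which have 1 each. It was 0 with dim values raised and 0 with the filters at the 75th percentile (4.84) and at the negative control level (4.75), which leave 2 members, Gimap6 and Gimap4. No member was 2-fold higher in any setting run. Gimap6 stayed between -0.88 and -1.03 over all settings, and Gimap4 between -0.50 and -0.70. Signal over background limits every member but Gimap6.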

Other observations

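Lists of other cells that the sort could hold differed in both directions, as measured unless stated. Macrophage markers were higher on the array labelled KO, with all 7 above 0 and a median of 0.84. Of all genes past the filter 41.0% were below 0. Of the 7, 2 were below background on both arrays. Cd5l (1.59, below background on both arrays), Vcam1 (0.97) and C1qc (0.86) differed most. Eosinophil markers had a median of -1.52 over 6 past the filter, and 4 of them were at least 2-fold lower, where 0.781% of all genes past the filter were. Ear6 (-1.78), Alox15 (-1.68, below background on the array labelled KO) and Epx (-1.56) differed most, while Ccr3 (0.96, below background on the WT array) and Siglecf (0.14, below it on both) were above 0. Gimap transcripts are also known from endothelial and blood stem cells. The 3 endothelial markers past the filter had a median of 0.03, with Pecam1 at -0.29, Cdh5, below background on both arrays, at 0.14 and Eng at 0.03. Among 6 genes of stem and multipotent progenitors the median was 0.38 (0.06 with dim values raised to 4.80), and Angpt1 (1.48, below background on the WT array), Meis1 (0.61) and Slamf1 (-0.52, below background on both) differed most. Neutrophil and monocyte markers had a median of 0.11, with Ctsg (0.72), Prtn3 (0.55) and Ltf (-0.55) farthest from 0. The ILC progenitor genes had a median of -0.25, with Id2, the repressor of E proteins, at 1.23 and Nfil3 at -0.93. None of these lists has a replicate check.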
